A study of Mus musculus with 28 samples.

Results

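The unfolded protein and amino acid stress response was followed through 35 genes in epidermal stem cells of mouse skin. The members were taken by gene symbol: a row of the count tables belonged to the set when its Ensembl identifier matched 1 of 35 listed symbols. All 35 were found among 47729 gene identifiers, and all 35 had enough reads to be tested. By role they were 5 sensors and transcription factors, 5 stress regulators and 7 amino acid supply genes that are known ATF4 targets, 13 chaperones and folding enzymes of the endoplasmic reticulum (ER), and 5 genes of ER-associated degradation.

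Skin of C57BL/6 mice, labelled female, received topical imiquimod, an agonist of Toll-like receptor 7 that provokes a psoriasis-like inflammation, or vanicream as the control, for 6 days starting at postnatal day 60. Cells with integrin α6, integrin β1 and Sca1 on the surface and without CD34 were sorted from the epidermis. Each of 8 groups had 2 RNA-seq libraries: imiquimod and control at day 6, the end of treatment; imiquimod and control 30 days after treatment (day 30); and post-imiquimod and control wounds, made at those 30 days and collected 6 h or 12 h later. No group carries an engineered allele in the labels, and every wound group shares the earlier 6 days of cream with its unwounded day 30 counterpart. The labels do not say whether the libraries of a group came from separate animals, so p-values measure the spread between these samples.

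The ER folds proteins bound for the cell surface and for secretion, and unfolded chains in it are sensed by 3 membrane proteins, IRE1 (gene Ern1), PERK (Eif2ak3) and ATF6. IRE1 splices the mRNA of the transcription factor XBP1, and ATF6 is cut to release a transcription factor; both raise chaperones and the degradation machinery. PERK, like the kinase GCN2 that senses missing amino acids, phosphorylates eIF2, which slows translation in general while favouring that of ATF4. ATF4 then turns on genes for making and importing amino acids and for ending the stress signal. The abundance of an mRNA does not show splicing of Xbp1, cutting of ATF6 or translation of ATF4.

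Library totals ran from 23623968 to 76993427 counts. Levels are given as counts scaled to a common library total (CPM), as values of libraries 1 and 2. The share of mitochondrial transcripts was 7.65% for the first imiquimod library of day 6 and 3.31% for the first control library of that day; all 14 others had 2.48% or less. Both day 30 libraries numbered 1 went against their label of female: 6036 reads of Y-linked genes and 1 read of Xist in imiquimod, and 7830 and 0 in control. The comparisons of wounds with day 30 and of the day 6 with the day 30 effect are therefore given with and without those 2 libraries. All 9 of 9 epidermal markers were detected, with a summed level of 40420 to 66850 CPM, most of it Krt5 and Krt14. Single markers moved within that sum. At day 6 Col17a1 had 1346 and 2793 CPM under imiquimod and 7592 and 7664 CPM in control, and Itgb4 and Trp63 were lower too. Krt14 was higher, at 22071 and 31575 CPM under imiquimod and 18089 and 11340 CPM in control. The 15 macrophage and monocyte markers summed to 81.3 and 86.6 CPM at day 6 under imiquimod, against 23.5 and 12.1 CPM in control, to 5.48 to 15.3 CPM in wounds and to 2.35 to 2.48 CPM at day 30. The 9 markers of B and plasma cells summed to at most 2.27 CPM in any library, with Ighm at up to 1.23, Mzb1 at up to 0.929 and Jchain at up to 0.0723 CPM. In these bulk samples, fewer cells of a type and less RNA per cell cannot be told apart.

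The promoters of the members were searched for known stress response sites. Windows from 250 bases before to 50 after the start of a gene were available from RefSeq (GRCm38.p6) for 31 of the 35 members; in all there were 32851 windows of 27025 genes. The ER stress element, known as the site where ATF6 and XBP1 act with NF-Y, was searched as CCAAT and CCACG 9 bases apart on both strands. It stood in 39 windows, or 0.119% of all, and in 8 of the 31 members: 6 of 11 chaperones, 2 of 5 degradation genes, and none of the 4 sensors, 5 stress regulators or 6 amino acid supply genes with a window. The shorter second form, ATTGG and CCACG 1 base apart, stood in 12 windows (0.0365%), among them those of Dnajb11 and Herpud1. A site known to bind ATF4 with C/EBP proteins, TGATGNAA on both strands, stood in 1304 windows (3.97%) and in 4 members, Trib3, Chac1, Asns and Herpud1. By role these were 2 of 5 stress regulators, 1 of 6 amino acid supply genes and 1 of 5 degradation genes. Most of the ATF4 targets with a window thus lacked it. Its stricter spelling TGATGCAA, contained in the first, stood in 294 windows (0.895%) and in Chac1 and Herpud1. The element TGACGTGG, linked to ATF6, stood in 222 windows (0.676%) and in no member. A match of letters is a description and not a measured binding site.

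The stretches below are printed because they carry these letters in the members followed in the results, each read 5′ to 3′ along the gene with the 2 outer words and the bases between them, or the ATF4 site, in capitals. Hspa5 is read from chr2:34772013-34772055 (plus strand), Dnajc3 from chr14:118937815-118937857 (plus), Creld2 from chr15:88819508-88819550 (plus), Pdia6 from chr12:17266479-17266521 (plus), Calr from chr8:84847063-84847105 (minus), Syvn1 from chr19:6046520-6046562 (plus) and Derl3 from chr10:75893230-75893272 (plus). Herpud1, with the second form, is read from chr8:94386365-94386399 (plus). Chac1 and Asns, with the ATF4 site, are read from chr2:119351037-119351068 (plus) and chr6:7693213-7693244 (minus).
Hspa5: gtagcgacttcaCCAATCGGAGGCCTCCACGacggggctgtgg
Dnajc3: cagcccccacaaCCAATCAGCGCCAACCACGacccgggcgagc
Creld2: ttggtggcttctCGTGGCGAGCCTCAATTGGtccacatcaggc
Pdia6: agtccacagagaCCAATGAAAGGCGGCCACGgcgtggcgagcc
Calr: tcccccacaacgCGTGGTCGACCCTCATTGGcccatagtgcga
Syvn1: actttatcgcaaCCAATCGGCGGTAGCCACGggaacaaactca
Derl3: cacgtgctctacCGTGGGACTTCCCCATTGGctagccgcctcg
Herpud1: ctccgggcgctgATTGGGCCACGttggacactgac
Chac1: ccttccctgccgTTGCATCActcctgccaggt
Asns: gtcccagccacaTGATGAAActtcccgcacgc
Creld2, Calr and Derl3 hold the ER stress element in the reverse direction, and Chac1 holds its ATF4 site on the other strand.

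Imiquimod at day 6 raised amino acid supply genes and ER chaperones together, and the mRNA of the factor XBP1 with them, while the mRNA of ATF4 itself did not pass the test. Of the 35 members, 17 rose and 1 fell, beside 36.6% of all 17299 genes tested that passed the same test in either direction, 21.6% of them higher and 15% lower. By role, the median log2 change was 1.42 over the 7 amino acid supply genes, 0.73 over the 13 chaperones, 0.24 over degradation genes, 0.10 over the stress regulators and -0.00 over the sensors, against 0.10 over all genes tested. The test was edgeR's quasi-likelihood F test with Benjamini-Hochberg adjustment over all genes tested, here and below, with a threshold of 0.05.

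Among the amino acid supply genes, 6 of 7 rose at day 6. Asns, which makes asparagine, stood at 98.5 and 106 CPM under imiquimod, against 45.5 and 42.9 CPM in control. Both imiquimod libraries were above both controls, a log2 change of 1.42 ± 0.16 (SE; adjusted p = 3.92e-05). Mthfd2, a mitochondrial enzyme of the folate cycle, had 28.6 and 25.7 CPM under imiquimod and 8.94 and 5.58 CPM in control, a 4.31-fold difference. Shmt2, which moves a carbon from serine into that cycle, had 349 and 295 CPM under imiquimod and 133 and 112 CPM in control. The serine synthesis enzymes rose with them: Psat1 stood at 365 and 434 CPM under imiquimod and at 192 and 189 CPM in control. Phgdh, the entry enzyme of that route, stood at 171 and 169 CPM under imiquimod and at 85.8 and 85.1 CPM in control (log2 1.21 ± 0.30, adjusted p = 0.00842). In each of these genes the 2 groups did not overlap. Slc7a5, a transporter of large neutral amino acids, stood at 141 and 175 CPM under imiquimod and at 70.8 and 33.6 CPM in control. Its partner chain Slc3a2, at 196 and 211 CPM under imiquimod and 191 and 177 CPM in control, did not pass (log2 0.36, adjusted p = 0.165). It passed with the replicate block (0.36, adjusted p = 0.0446), which called 48.9% of all genes at day 6 against 36.6% without it. After group means were removed, day 6 libraries sharing a number correlated by 0.18, near the 0.177 reached between time points. Passing only with the block is therefore weak support at day 6.

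The stress regulators split at day 6. Trib3, a pseudokinase that restrains ATF4, had 14.7 and 15.6 CPM under imiquimod and 3.01 and 1.38 CPM in control. That was the largest change among the members, 7.89-fold (log2 2.98 ± 0.51, adjusted p = 0.000851), with both imiquimod libraries above both controls. Ppp1r15a, which directs a phosphatase to eIF2 and so ends the translational block, pointed the other way at 42.4 and 82.6 CPM under imiquimod and 185 and 138 CPM in control. Its groups did not overlap, and it missed the threshold (log2 -1.13 ± 0.43, adjusted p = 0.061). With the replicate block, under the limit given for Slc3a2, it passed (-1.22, adjusted p = 0.0338). Ddit3, the transcription factor CHOP, stayed between 8.88 and 20.0 CPM over all 16 libraries, with a day 6 log2 change of -0.41 (adjusted p = 0.176). Chac1, a glutathione-degrading enzyme, was low throughout, at 1.06 to 4.66 CPM. Sesn2, an inhibitor of mTORC1, ranged from 36.7 to 61.4 CPM, and neither gene passed at day 6.

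**Figure D1:**
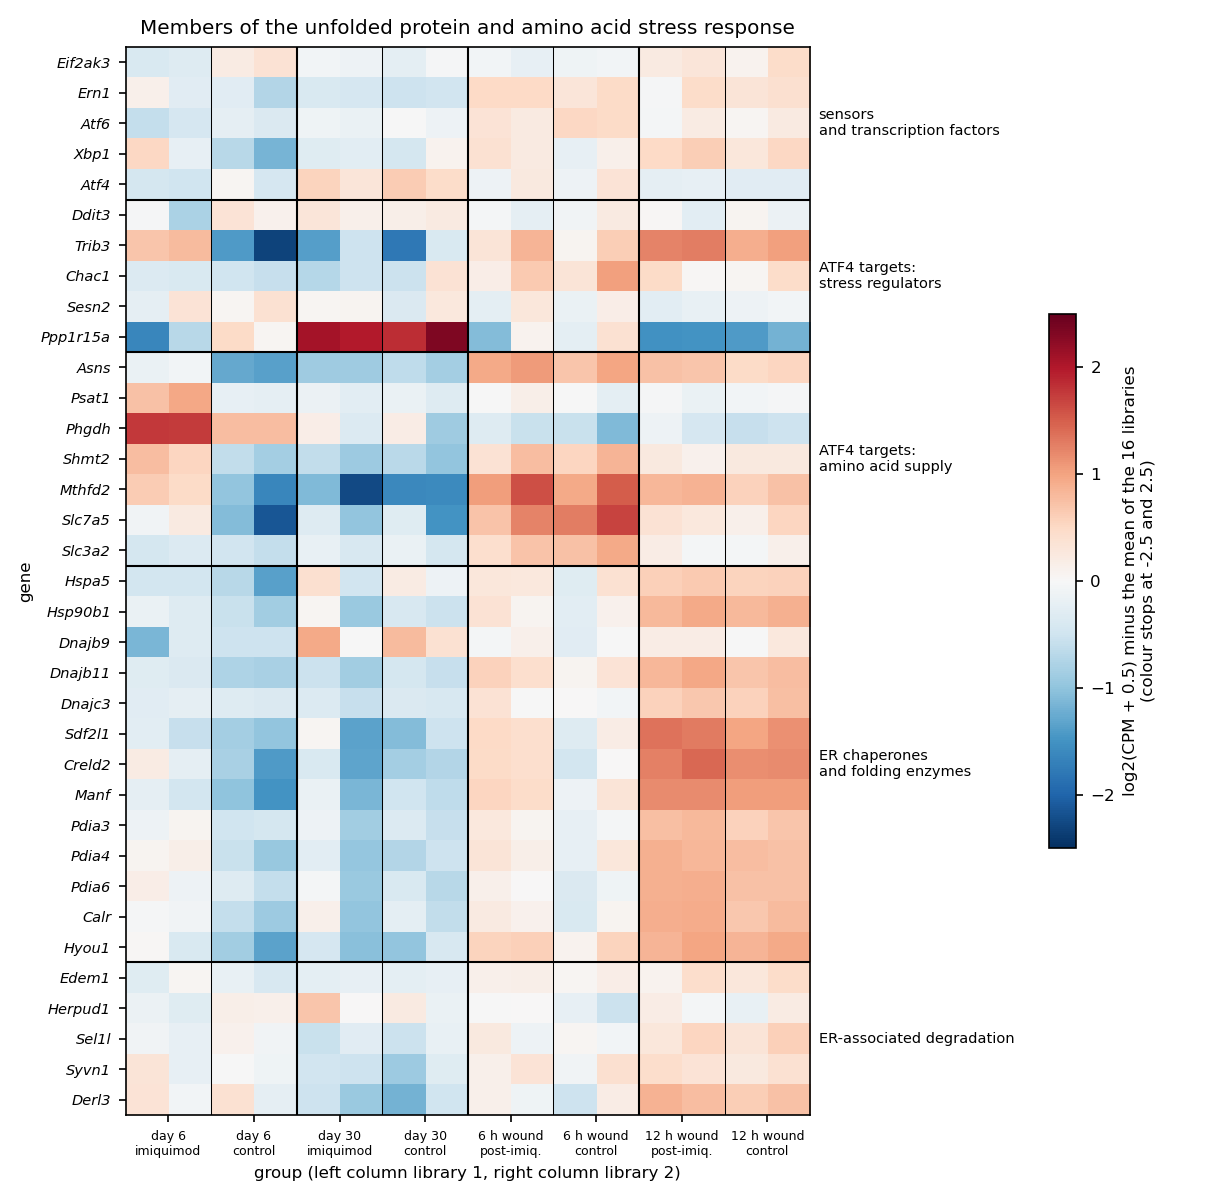
Heat map of the 35 members (rows, grouped by role) in the 16 libraries (columns, grouped by condition). Colour gives log2(CPM + 0.5) minus the gene's mean over the 16 libraries, with the scale ending at 2.5 in each direction: Asns, Mthfd2 and Shmt2 are higher in day 6 imiquimod and in wounds than in every other library, Creld2, Manf and Hyou1 are highest at 12 h, and Ppp1r15a is highest at day 30.

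Chaperones moved by smaller factors at day 6. All 13 had a positive log2 change, except that Dnajb9 was at -0.01 with the replicate block and at -0.06 with the compared libraries alone, and 8 passed the threshold: Dnajb11, Creld2, Manf, Pdia3, Pdia4, Pdia6, Calr and Hyou1. Creld2, a disulfide isomerase, was highest in change at 61.1 and 45.1 CPM under imiquimod, against 29.8 and 19.3 CPM in control (log2 1.32 ± 0.30, adjusted p = 0.00473). Hyou1, a large chaperone of the HSP70 family, stood at 214 and 161 CPM under imiquimod and at 115 and 83.1 CPM in control. Manf, a secreted ER protein that binds the chaperone BiP, stood at 91.5 and 77.9 CPM under imiquimod and at 53.0 and 38.0 CPM in control. The groups of all 3 genes were separate. Hspa5, which encodes BiP, the most studied ER chaperone, had 700.3 and 697 CPM under imiquimod and 594 and 373 CPM in control. It missed the threshold (log2 0.75 ± 0.32, adjusted p = 0.0891), and passed only with the replicate block (0.78, adjusted p = 0.0217), under the limit given for Slc3a2. The same held for Hsp90b1, the ER form of HSP90 (log2 0.68, adjusted p = 0.0688, and 0.69, adjusted p = 0.0252, with the block), and for Dnajc3, a BiP cochaperone (0.31, adjusted p = 0.111, and 0.31, adjusted p = 0.0428). Sdf2l1 had a log2 change of 0.73 (adjusted p = 0.144).

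Of the sensors, Xbp1 rose most, with 201 and 121 CPM under imiquimod against 86.2 and 62.0 CPM in control (log2 1.31 ± 0.23, adjusted p = 0.000724). Ern1 rose by 0.63 ± 0.19 (adjusted p = 0.0184), although its libraries overlapped at 60.6 and 45.6 CPM under imiquimod and 45.7 and 33.3 CPM in control. Eif2ak3 fell to 20.0 and 20.9 CPM under imiquimod, against 30.5 and 34.2 CPM in control (log2 -0.44 ± 0.16, adjusted p = 0.0415). Atf4 mRNA stood at 333 and 319.9 CPM under imiquimod and at 465 and 335 CPM in control (log2 -0.08, adjusted p = 0.818) with both imiquimod libraries below both controls, the nearest by 333 against 335 CPM. Atf6 had a log2 change of -0.00, and none of the 5 degradation genes passed.

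Of the 18 calls at day 6, 7 were kept whichever library was left out: Xbp1, Trib3, Asns, Psat1, Shmt2, Mthfd2 and Dnajb11. Without library 2 of control, the other 11 were lost (adjusted p = 0.0535 to 0.24) and the change of Ern1 dropped to 0.41. Without library 1 of control, Phgdh, Eif2ak3, Calr, Pdia6 and Pdia3 were lost (0.0533 to 0.187); without library 1 of imiquimod, Calr, Ern1, Pdia6 and Eif2ak3 (0.0856 to 0.183); and without library 2 of imiquimod, Slc7a5, Pdia6, Calr and Pdia3 (0.0725 to 0.265). The Langerhans and dendritic cell markers summed to 156 and 75.0 CPM under imiquimod and 43.2 and 46.1 CPM in control. Nearly all of that was Cd74, H2-Ab1 and H2-Aa, with Cd74 at 92.6 and 40.7 CPM under imiquimod and 23.0 and 24.5 CPM in control. In the same list Cd207 was lower, at 0.209 and 0.178 CPM under imiquimod and 0.323 and 0.689 CPM in control. Ptprc was higher, at 2.19 and 2.96 CPM under imiquimod and 0.949 and 0.207 CPM in control. The macrophage markers were higher too, as given above. The 4 gate-negative or follicle markers (Cd34, Krt15, Lgr5 and Sox9) summed to 519 and 573 CPM under imiquimod and 7481 and 11660 CPM in control, nearly all of it Krt15 at 397 and 504 CPM under imiquimod and 7454 and 11633 CPM in control. Sox9 went the other way, at 110 and 57.9 CPM under imiquimod and 20.1 and 14.9 CPM in control. Cd34 and Lgr5 overlapped between the groups. The part of these markers in the day 6 changes was not tested.

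**Figure D2:**
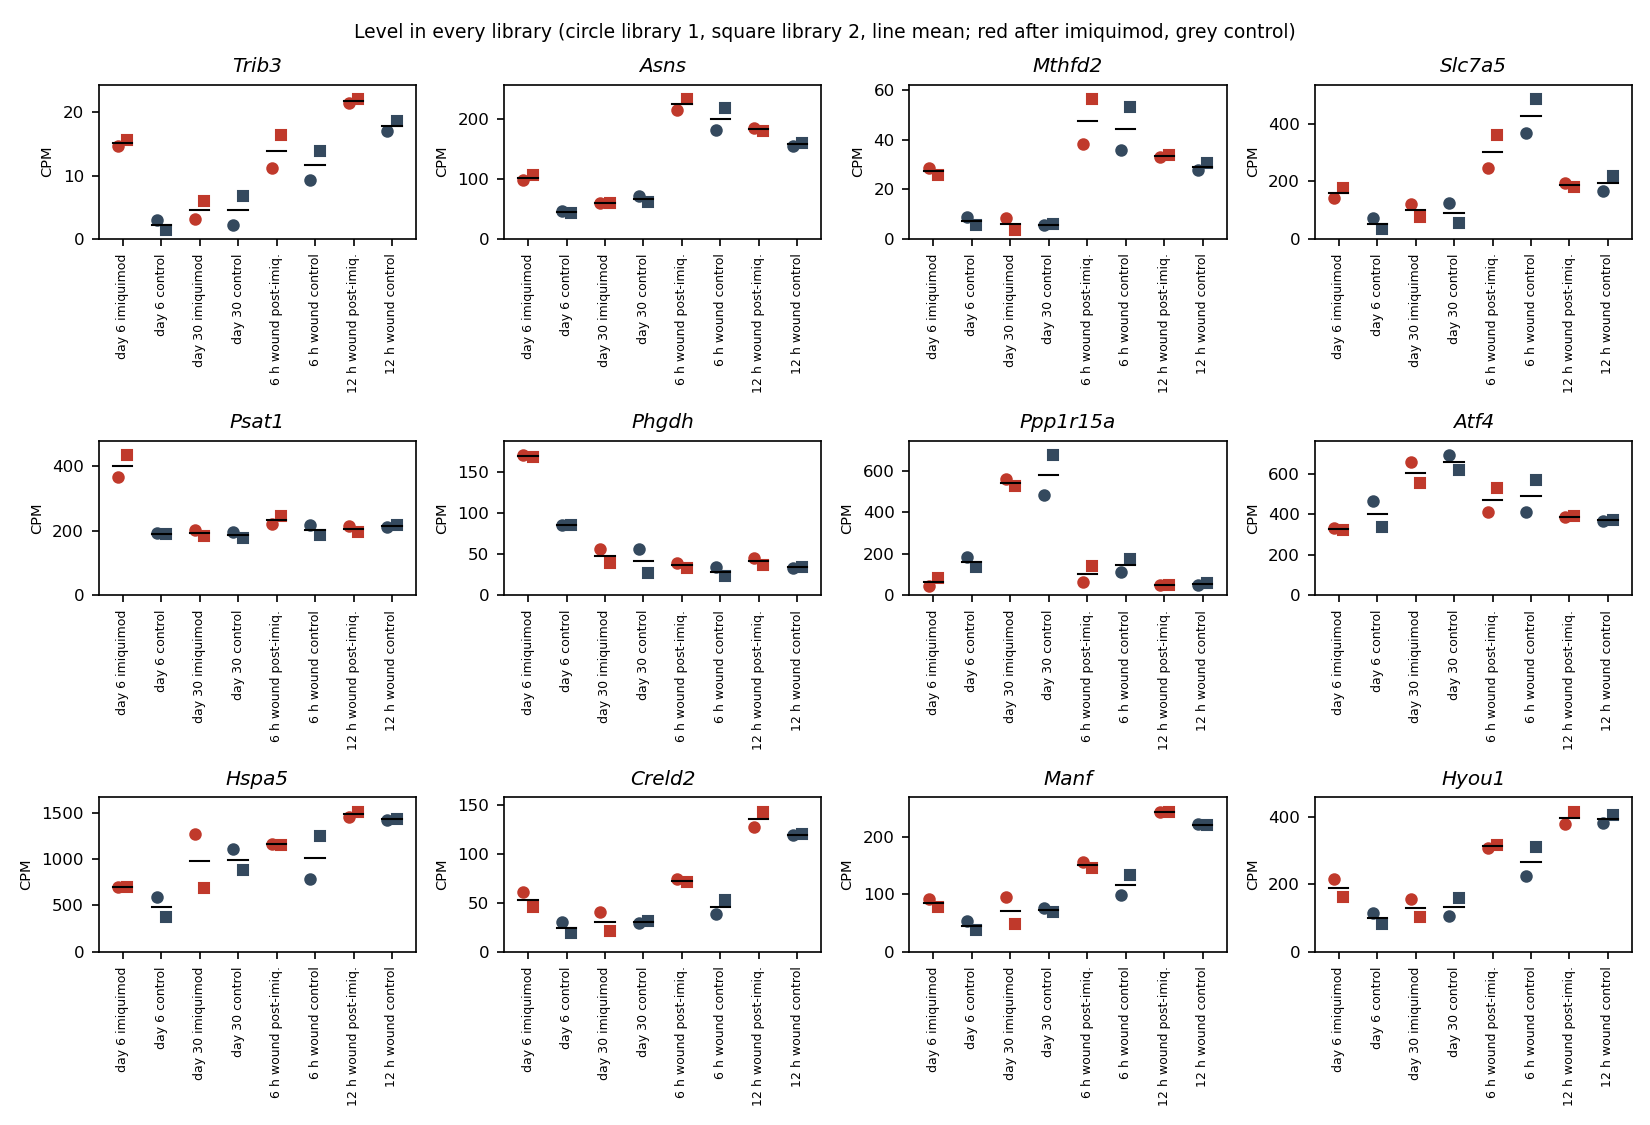
Levels of 12 members in every library, in CPM on a linear axis from 0; circles are libraries 1, squares libraries 2 and lines their mean, in red after imiquimod and in grey for control. Trib3, Asns, Mthfd2, Psat1 and Phgdh are higher in both day 6 imiquimod libraries than in both controls, and Ppp1r15a is at 481 CPM or more in the day 30 libraries and at 185 CPM or less in the others.

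At day 30 after treatment none of the 35 members passed the test between imiquimod and control. The count was 0 by edgeR's quasi-likelihood test, 0 at an unadjusted p under 0.05 and 0 by DESeq2, beside 0.0116% of all genes, or 2 genes, and 716 genes at an unadjusted p under 0.05. Log2 changes lay between -0.86 for Chac1 and 0.28 for Herpud1, with a median of -0.06. Asns stood at 60.2 and 59.6 CPM after imiquimod and at 71.4 and 61.4 CPM in control, and Trib3 at 3.09 and 6.01 CPM after imiquimod and 2.21 and 6.74 CPM in control. The groups overlapped in Trib3, and in Asns they lay apart by less than the spread of the controls.

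The chaperones varied more between the 2 day 30 imiquimod libraries than between the groups. Hspa5 had 1272 and 692 CPM after imiquimod, and 1107 and 877 CPM in control. Calr, a chaperone of glycoproteins, had 944 and 434 CPM after imiquimod, and 728 and 562 CPM in control. In all 13 of 13 chaperones, library 1 of imiquimod was above library 2, by ratios of 1.18 to 2.69. That library also had a fibroblast marker sum of 309 CPM against 117 CPM in library 2, with Col1a1 at 47.3 CPM against 0.0679 CPM, and it is 1 of the 2 that went against the label of female. Their part in the spread was not tested.

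Wounding of control skin raised 5 of the 7 amino acid supply genes and 2 of the 13 chaperones at 6 h. Of the 35 members, 10 rose and 1 fell against day 30 control, beside 34.7% of all genes, 18% higher and 16.7% lower. The calls among all 35 members, and the 2 of 13 chaperones that rose, were thus near the shares over all genes. The amino acid supply genes had a median log2 change of 1.39 and the chaperones of 0.28. Mthfd2 had 35.9 and 53.2 CPM in 6 h wounds, against 5.64 and 5.74 CPM at day 30, a 7.15-fold difference (log2 2.84 ± 0.39, adjusted p = 0.000287). Asns stood at 181 and 219 CPM in 6 h wounds and at 71.4 and 61.4 CPM at day 30 (log2 1.46 ± 0.16, adjusted p = 4.92e-05). Both wound libraries were above both unwounded ones in these genes, by more than the spread of either group. The 2 chains of the amino acid transporter rose together: Slc7a5 stood at 367 and 487 CPM in 6 h wounds and at 123 and 53.2 CPM at day 30, and Slc3a2 at 443 and 516 CPM in 6 h wounds and at 236 and 195 CPM at day 30. Shmt2 stood at 296 and 367 CPM in 6 h wounds and at 127 and 103 CPM at day 30.

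Psat1 and Phgdh did not pass the test. Psat1 had 219 and 185 CPM in 6 h wounds and 197 and 177 CPM at day 30, and Phgdh 33.9 and 22.8 CPM in 6 h wounds and 56.6 and 26.8 CPM at day 30; Phgdh (log2 -0.72, adjusted p = 0.0886) was called lower with the replicate block (-0.63, adjusted p = 0.00952), without a filter on low counts (-0.67, adjusted p = 0.00376) and without library 2 of day 30 (-1.16, adjusted p = 0.00359), and stood at -0.03 without library 1 of day 30. Ppp1r15a fell 4.39-fold, to 112 and 174 CPM in 6 h wounds, against 481 and 675 CPM at day 30 (log2 -2.13 ± 0.44, adjusted p = 0.00371). Its unwounded level was thus above every other group of the series, with all 4 day 30 libraries between 481 and 675 CPM. The remaining calls at 6 h were higher: Ern1 (log2 0.75), Atf6 (0.42), Dnajb11 (0.59), Hyou1 (0.89) and Syvn1, an E3 ligase of ER-associated degradation (0.63). Hspa5 stood at 784 and 1249 CPM in 6 h wounds and at 1107 and 877 CPM at day 30, with the groups overlapping. With the replicate block, which called 46% of all genes here, Trib3 was also higher (log2 1.38, adjusted p = 0.00408, against 1.24 and 0.0634 without it). Atf4 (-0.58, adjusted p = 0.00765), Dnajb9 (-0.89, adjusted p = 0.011) and Herpud1 (-0.54, adjusted p = 0.019) were lower with it. Wounds and day 30 are separate time points, between which this block takes the spread from pair to pair out of the error by construction. Its p-values in wound comparisons with day 30, that of Phgdh included, are therefore no added support.

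Without the day 30 libraries numbered 1, 8 members were called at 6 h, with Atf6 (log2 0.50, adjusted p = 0.0586), Hyou1 (0.64, adjusted p = 0.0876) and Syvn1 (0.37, adjusted p = 0.288) lost. Leaving out library 2 of the 6 h wounds lost 6 of 11 calls (Slc7a5, Ern1, Dnajb11, Atf6, Hyou1 and Syvn1, adjusted p = 0.0512 to 0.36; Hyou1 then 0.58 and Syvn1 0.31); library 1 of those wounds, Atf6 (0.0821); library 1 of day 30, Atf6, Hyou1 and Syvn1 (0.0522 to 0.244; Syvn1 then 0.39); and library 2 of day 30, Dnajb11 and Atf6 (0.0809 to 0.182). In the 6 h control wounds 12 of 13 chaperones were lower in library 1 than in library 2, with ratios of 0.628 to 1.06. The neutrophil marker sum was 73.4 to 174 CPM over all wound libraries and 0.306 to 2.12 CPM at day 30, almost all of it Cxcr2 at 73.2 to 173 CPM, while Ly6g, Camp, Ngp and Mpo reached at most 0.109, 0.0812, 0.0284 and 0.0541 CPM in any wound library. The sum of the 4 gate-negative or follicle markers, nearly all of it Krt15, was 977 to 2466 CPM in the wound libraries and 4800 to 9695 CPM at day 30; the part of these markers in the wound changes was not tested.

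At 12 h most chaperones were above their unwounded level. In control skin, 19 members rose and 2 fell against day 30, beside 30.8% of all genes, 16.5% higher and 14.3% lower. Among those that rose were 11 of the 13 chaperones, with a median log2 change of 1.07 over the 13. Creld2 stood at 119 and 119.9 CPM in 12 h wounds, against 29.0 and 31.5 CPM at day 30, a 3.46-fold difference (log2 1.79 ± 0.30, adjusted p = 0.00109). Manf stood at 223 and 221 CPM in 12 h wounds and at 75.8 and 68.9 CPM at day 30, and Hyou1 at 379.9 and 404 CPM in 12 h wounds and at 106 and 158 CPM at day 30. Hsp90b1 stood at 840.2 and 882 CPM in 12 h wounds and at 361 and 328 CPM at day 30 (log2 1.13, adjusted p = 0.00843). All wound libraries of these 4 genes were above all unwounded ones. Sdf2l1, part of the BiP complex, changed most after Creld2 among the chaperones (log2 1.68), and Pdia4, a disulfide isomerase, changed by 1.19. The exceptions were Hspa5, at 1423 and 1437 CPM in 12 h wounds and 1107 and 877 CPM at day 30 (log2 0.33, adjusted p = 0.467), and Dnajb9, a BiP cochaperone, with a log2 change of -0.67 (adjusted p = 0.168; with the replicate block -0.66, adjusted p = 0.0394).

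Of the 5 degradation genes, 3 rose at 12 h against day 30: Syvn1 and its partner Sel1l rose by log2 0.72 and 0.64, and Derl3, a channel protein of the same route, by 2.78 ± 0.82 (adjusted p = 0.022). Derl3 rests on few reads, 46 and 99 in the 12 h control wounds against 0 and 11 at day 30. Edem1 (log2 0.41, adjusted p = 0.0912) and Herpud1 (-0.22, adjusted p = 0.494) did not pass. Asns, Mthfd2 and Shmt2 were higher at 12 h than at day 30 (log2 1.06, 2.16 and 0.88), and Trib3, at 17.1 and 18.7 CPM in 12 h wounds and 2.21 and 6.74 CPM at day 30, rose as well (1.81 ± 0.48, adjusted p = 0.0146). Slc7a5 did not pass at 12 h (0.92, adjusted p = 0.162), nor did Slc3a2 (0.15); the test of 12 h against 6 h is given further on. Atf4 fell to 369 and 371 CPM in 12 h wounds, against 693 and 619.9 CPM at day 30 (log2 -1.02 ± 0.23, adjusted p = 0.00514). Ppp1r15a fell 12.2-fold, to 49.8 and 58.2 CPM in 12 h wounds, against 481 and 675 CPM at day 30 (log2 -3.60 ± 0.47, adjusted p = 0.000315).

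Of the 21 calls, 10 were kept in every fit that left out 1 library: Atf4, Ppp1r15a, Asns, Mthfd2, Dnajb11, Dnajc3, Creld2, Manf, Pdia4 and Hyou1. Library 1 of day 30 carried 6 of the others (Sdf2l1, Ern1, Sel1l, Trib3, Derl3 and Syvn1, adjusted p = 0.0512 to 0.175 without it, Syvn1 then 0.47); library 2 of day 30 carried 6 (Hsp90b1, Pdia6, Shmt2, Ern1, Pdia3 and Calr, 0.0521 to 0.178). Without library 2 of day 30 the change of Trib3 was 2.79 and that of Derl3 8.80, which was fitted against a day 30 library at 0 counts and so depends on the prior count. Without wound library 1, Ern1, Syvn1, Derl3 and Calr were lost (0.0523 to 0.0908), and without wound library 2, Trib3, Pdia3, Derl3, Ern1, Sel1l, Syvn1 and Calr (0.0701 to 0.138). With both day 30 libraries numbered 1 left out there were 17 calls, 16 of them shared: Derl3 (log2 1.94, adjusted p = 0.0715), Ern1 (0.66, 0.0778), Sel1l (0.48, 0.0914), Syvn1 (0.45, 0.21) and Trib3 (1.22, 0.0565) were lost, and Slc7a5 (1.67, 0.0263) was gained.

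**Figure D3:**
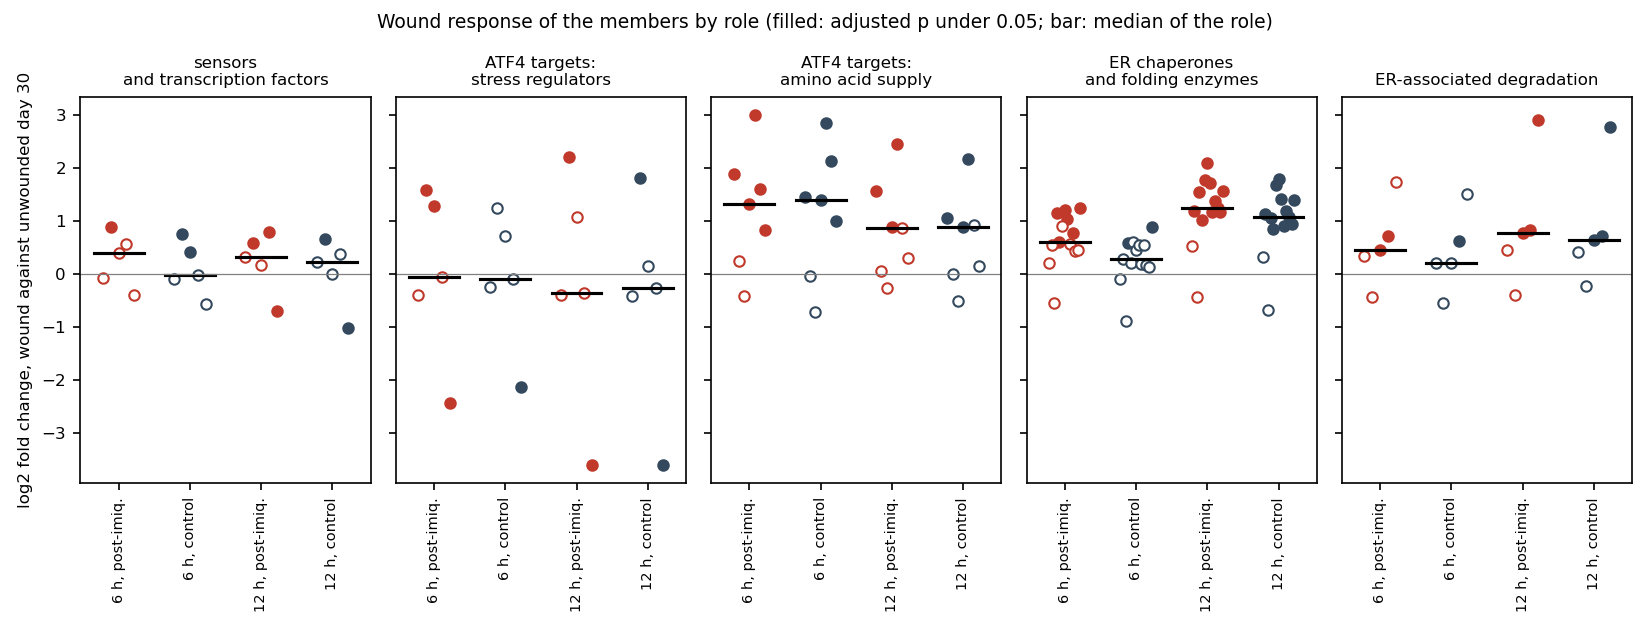
Log2 change of each member in wounds against unwounded day 30 skin, by role, at 6 h and 12 h, post-imiquimod skin left of control skin; each point is 1 gene, filled where it passed the test, and the line is the median of the role. The chaperone medians are 0.60 and 0.28 at 6 h and 1.25 and 1.07 at 12 h in post-imiquimod and control skin, and 5 of the 7 amino acid supply genes passed at 6 h in each kind of skin, Psat1 and Phgdh being the others.

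Wounds of post-imiquimod skin raised the same roles. Against day 30 imiquimod, 16 members rose and 1 fell at 6 h, beside 38.7% of all genes, 20.1% higher and 18.6% lower. At 12 h 20 rose and 2 fell, beside 37.7% of all genes, 20.3% higher and 17.3% lower. At 6 h Mthfd2 had 38.1 and 56.7 CPM, against 8.21 and 3.46 CPM at day 30 (log2 3.00 ± 0.40, adjusted p = 0.000157), and Asns 215 and 234 CPM, against 60.2 and 59.6 CPM at day 30 (1.88 ± 0.16, adjusted p = 1.02e-05). At 6 h, 6 of the 13 chaperones rose: Dnajb11 (log2 1.16), Dnajc3 (0.60), Creld2 (1.21), Manf (1.04), Pdia4 (0.78) and Hyou1 (1.24). Trib3 (1.59 ± 0.48, adjusted p = 0.0213) and Chac1 (1.29 ± 0.44, adjusted p = 0.0335) rose too, while Ppp1r15a fell to 62.4 and 141 CPM at 6 h, against 561 and 524 CPM at day 30. With the replicate block, under the limit given above, 24 members were called at 6 h, beside 49.8% of all genes. It added Atf4 (-0.40) lower and Atf6, Xbp1 (0.56), Calr, Hsp90b1, Pdia3 and Pdia6 higher.

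At 12 h 11 of 13 chaperones rose in post-imiquimod skin. Creld2 had 127 and 143 CPM in 12 h wounds and 40.3 and 20.7 CPM at day 30, a 4.25-fold difference (log2 2.09 ± 0.30, adjusted p = 0.000312). Sdf2l1 had 75.3 and 71.5 CPM in 12 h wounds and 30.1 and 11.2 CPM at day 30, and Manf 245 and 244 CPM in 12 h wounds and 95.1 and 48.5 CPM at day 30. The wound libraries stood close together in each of these genes, while the day 30 libraries stood apart. Hspa5 and Dnajb9 were the chaperones that did not pass, with Hspa5 at 1460 and 1515 CPM in 12 h wounds and 1272 and 692 CPM at day 30. Xbp1 rose (log2 0.79, adjusted p = 0.0151), with 197 and 213 CPM in 12 h wounds and 113 and 116 CPM at day 30, and Trib3 rose (2.21 ± 0.49, adjusted p = 0.00413). Atf4 (-0.70, adjusted p = 0.0286) and Ppp1r15a (-3.59, adjusted p = 0.00021) fell. The block added Chac1 and Edem1.

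At 6 h in post-imiquimod skin, 7 of 17 calls were kept whichever library was left out: Ern1, Ppp1r15a, Asns, Shmt2, Mthfd2, Dnajb11 and Hyou1. Library 2 of day 30 carried 9 of the others (Creld2, Slc3a2, Sel1l, Manf, Dnajc3, Chac1, Syvn1, Slc7a5 and Pdia4, adjusted p = 0.0546 to 0.229 without it), with Creld2 at 0.75, Manf at 0.58 and Pdia4 at 0.41 then. Library 1 of day 30 carried Syvn1, Chac1, Trib3 and Sel1l (0.0603 to 0.222), with Manf at 1.63 and Pdia4 at 1.20 then. Without wound library 2, Sel1l, Manf, Slc3a2, Pdia4, Slc7a5, Trib3, Syvn1 and Chac1 were lost (0.0522 to 0.233), and without wound library 1, Dnajc3, Pdia4 and Sel1l (0.0615 to 0.235). Without the day 30 libraries numbered 1, 20 members were called, 14 of them shared, with Chac1 (log2 1.15, adjusted p = 0.102), Sel1l (0.34, 0.202) and Trib3 (1.18, 0.0537) lost and Calr (1.13), Derl3 (2.65), Hsp90b1 (1.14), Pdia3 (1.01), Pdia6 (0.97) and Sdf2l1 (1.82) gained.

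At 12 h in post-imiquimod skin, 15 of 22 calls were kept. Without library 2 of day 30, Syvn1, Shmt2, Xbp1, Calr, Derl3 and Ern1 were lost (adjusted p = 0.0658 to 0.142), and Hsp90b1 stood at 0.73, Sdf2l1 at 1.17, Pdia6 at 0.82 and Calr at 0.67. Without library 1 of day 30, Xbp1, Ern1 and Atf4 were lost (0.0644 to 0.145), and Sdf2l1 stood at 2.68 and Calr at 1.87. Without wound library 1, Derl3 and Atf4 were lost (0.0506 to 0.111), and without wound library 2, Calr, Atf4, Xbp1 and Ern1 (0.0536 to 0.33; Ern1 then 0.28). Without both day 30 libraries numbered 1 there were 20 calls, 19 of them shared: Atf4 (log2 -0.56, adjusted p = 0.12), Ern1 (0.62, 0.081) and Xbp1 (0.77, 0.0599) were lost, and Hspa5 (1.06, 0.0287) was gained.

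Set directly against 6 h wounds, 12 h wounds had higher chaperone values and mostly lower amino acid supply values, without a member past the threshold. In control skin the count of members was 0 by edgeR's quasi-likelihood test, beside 0.647% of all genes. DESeq2 called 5 members, beside 2.25% of all genes. By edgeR's test 17 members had an unadjusted p under 0.05, a count given without the share over all genes and not read as a result. All 13 chaperones had a positive log2 change with a median of 0.70, and 5 of 7 amino acid supply genes a negative one with a median of -0.51. The median over all genes tested was 0.0013. Creld2 was nearest to the threshold among the chaperones after Dnajc3, at 119 and 119.9 CPM at 12 h and 38.4 and 53.0 CPM at 6 h (log2 1.33 ± 0.30, adjusted p = 0.0691). Slc3a2 had 257 and 290.3 CPM at 12 h and 443 and 516 CPM at 6 h (-0.86, adjusted p = 0.0655). The groups of both genes lay apart.

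With the replicate block, 11 members were called between 12 h and 6 h in control skin, beside 7.49% of all genes: Calr, Creld2, Dnajb11, Dnajc3, Hsp90b1, Manf, Pdia3, Pdia6 and Sel1l higher, and Shmt2 (log2 -0.49, adjusted p = 0.0183) and Slc3a2 (-0.86, adjusted p = 0.00974) lower. Between time points this block takes the spread from pair to pair out of the error by construction. In post-imiquimod skin the count was 0 by edgeR's test, beside 0.173% of all genes, and 0 by DESeq2, beside 1.12%. By edgeR's test 13 members had an unadjusted p under 0.05, again without the share over all genes. All 13 chaperones were positive with a median of 0.60, and 6 of 7 amino acid supply genes negative with a median of -0.44. The median over all genes tested was 0.0075. The block called Pdia6 (0.80, adjusted p = 0.0273) and Shmt2 (-0.42, adjusted p = 0.0463).

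Whether earlier imiquimod changed the wound values was asked within each time point. At 6 h the count of members was 0 by edgeR's quasi-likelihood test, beside 0.0347% of all genes; 1 member, Creld2, had an unadjusted p under 0.05, and DESeq2 called 0. Creld2 stood at 74.0 and 70.8 CPM in post-imiquimod wounds and at 38.4 and 53.0 CPM in control wounds (log2 0.69 ± 0.29, unadjusted p = 0.0368, adjusted p = 0.758 by edgeR). All 13 chaperones and all 5 degradation genes had a positive change, the chaperones with a median of 0.31, against a median of -0.01 and 8473 positive values over the 17299 genes tested. Hspa5 had 1168 and 1153 CPM in post-imiquimod wounds and 784 and 1249 CPM in control wounds, so that control library 1 stood apart and control library 2 lay above both post-imiquimod libraries. Manf had 157 and 147 CPM in post-imiquimod wounds and 98.4 and 134 CPM in control wounds.

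At 12 h the count was 0 by edgeR's test, beside 0% of all genes, with 0 members and 425 genes at an unadjusted p under 0.05; DESeq2 called 27 genes and 0 members. The 13 chaperones were all positive, between 0.02 and 0.32 with a median of 0.20, against a median of 0.0026 over all genes tested. Chaperones shifted together between the libraries of a group, as given above for day 30 and 6 h. Their shared sign, here and at 6 h, is therefore not 13 separate observations. Calr had 1609 and 1647 CPM in post-imiquimod wounds and 1377 and 1482 CPM in control wounds, and Hspa5 1460 and 1515 CPM in post-imiquimod wounds and 1423 and 1437 CPM in control wounds. These groups lay apart, by differences that did not pass. Langerhans and dendritic cell markers summed to 63.4 and 52.4 CPM in the post-imiquimod 12 h wounds and 27.1 and 17.1 CPM in the control ones. Nearly all of that was Cd74, H2-Ab1 and H2-Aa, while Cd207 reached at most 0.4425 CPM in these libraries. The part of these markers in the 12 h values was not tested.

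The wound response itself, as the change from day 30 in post-imiquimod skin minus that in control skin, was tested as an interaction. At 6 h 0 members passed by edgeR's test, beside 0% of all genes, with 1 member (Dnajb11, log2 difference 0.57 ± 0.23, unadjusted p = 0.026, adjusted p = 0.769) and 1057 genes at an unadjusted p under 0.05; DESeq2 called 23 genes and 0 members. At 12 h 0 members passed, beside 0% of all genes, with 1 member (Asns, 0.50 ± 0.22, unadjusted p = 0.0418, adjusted p = 1) and 503 genes at an unadjusted p under 0.05; DESeq2 called 1 gene and 0 members. The larger number of calls in post-imiquimod wounds was not matched by a difference that passed its own test. The 6 h and 12 h comparisons share their day 30 libraries.

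**Figure D4:**
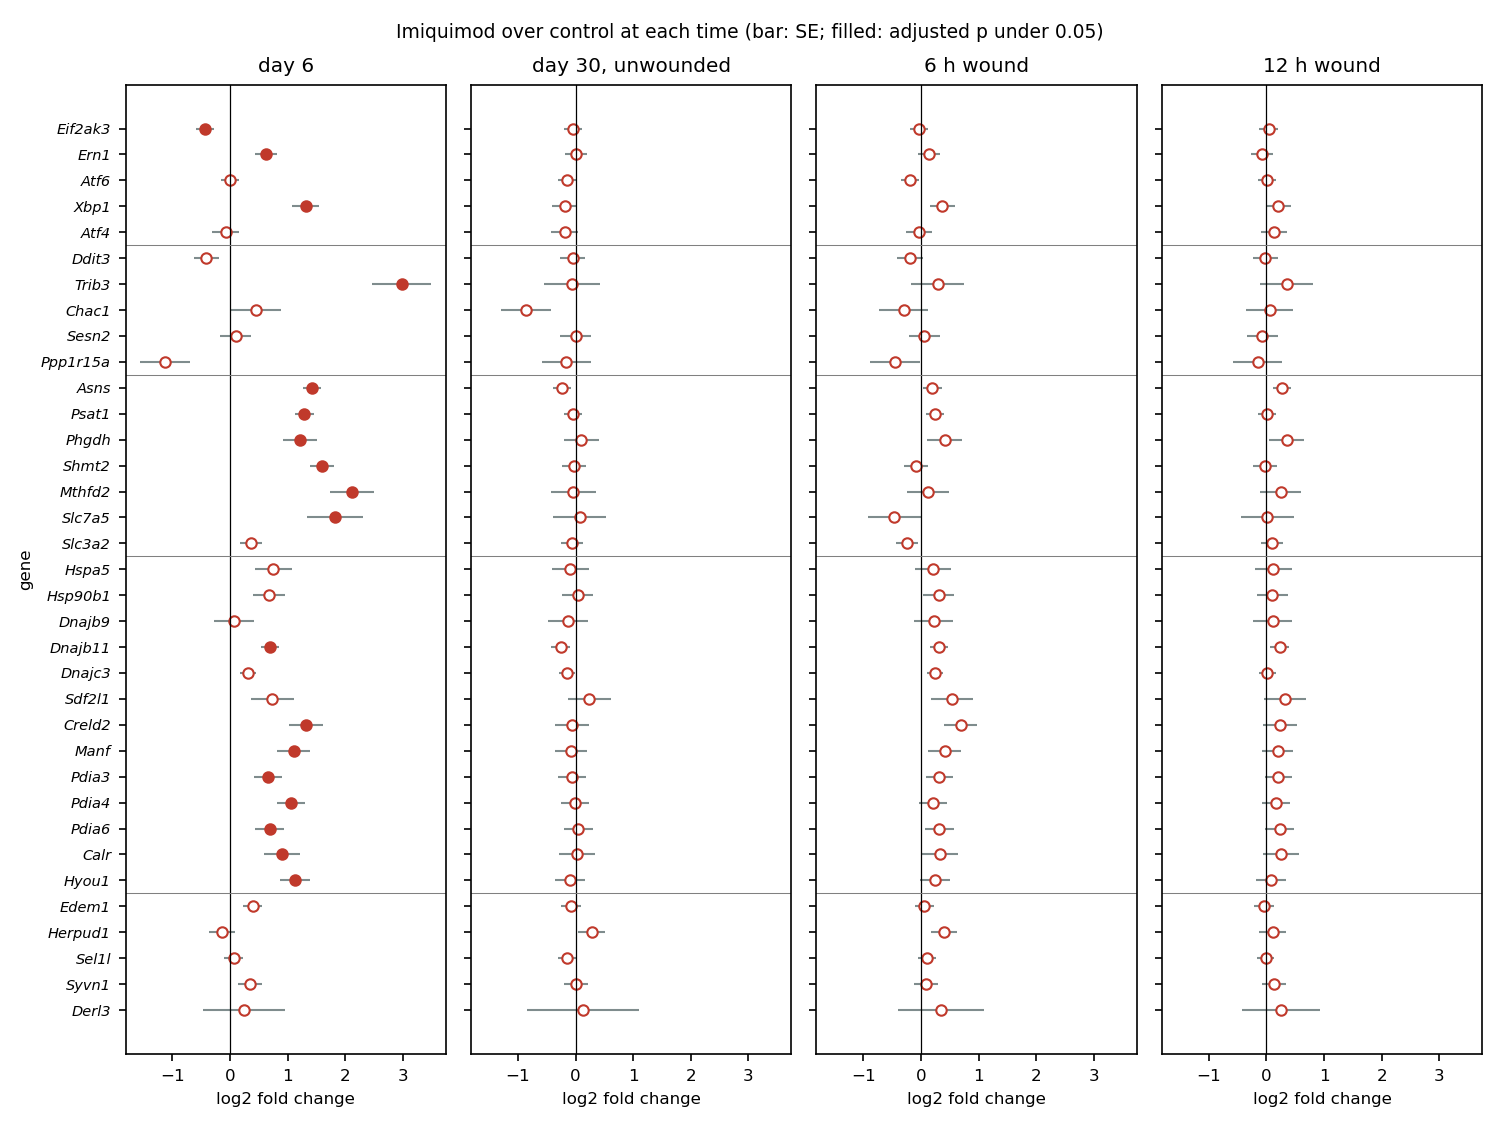
Log2 change of each member between imiquimod or post-imiquimod and control skin at day 6, day 30, 6 h and 12 h after wounding, with 1 row for each gene, grouped by role; bars are SE and filled points passed the test. At day 6 17 members are higher and 1 lower, and at the later times none passes while all 13 chaperones lie above 0 at 6 h and 12 h. The medians over all genes tested at those 2 times are -0.0068 and 0.0026.

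The imiquimod effect at day 6 was larger than at day 30 in 11 members by the test of that difference, all in the direction of a higher day 6 effect, beside 22.5% of all genes. The largest difference was that of Trib3 (log2 3.04 ± 0.69, adjusted p = 0.00924), followed by Mthfd2 (2.15 ± 0.54, adjusted p = 0.0149), Asns (1.65 ± 0.22, adjusted p = 0.000489) and Shmt2 (1.62 ± 0.30, adjusted p = 0.00249). Xbp1 (1.51 ± 0.32, adjusted p = 0.00549) and Psat1 (1.33 ± 0.23, adjusted p = 0.00179) were next among those kept whichever library was left out. The other 5 were chaperones: Dnajb11, Creld2, Manf, Pdia4 and Hyou1.

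Each of those 5 chaperones and Mthfd2 was lost in at least 1 such fit. Without library 2 of day 6 control, Mthfd2, Hyou1, Creld2, Pdia4 and Manf were lost (adjusted p = 0.0615 to 0.167); without library 2 of day 30 imiquimod, Dnajb11, Creld2, Manf, Hyou1 and Pdia4 (0.0612 to 0.153), with Creld2 at 0.90, Manf at 0.71 and Pdia4 at 0.69. Without library 2 of day 30 control, Manf, Creld2, Pdia4 and Hyou1 were lost (0.071 to 0.119) and Trib3 stood at 2.01; without library 1 of that group, Pdia4, Creld2 and Manf (0.0658 to 0.134). Without day 6 imiquimod library 1, Hyou1, Creld2 and Manf were lost (0.0894 to 0.105), and without its library 2, these and Pdia4 (0.0516 to 0.129). Without library 1 of day 30 imiquimod 17 members were called, with both day 30 libraries numbered 1 left out 16, all 11 among them, and with the replicate block 18, beside 34.3% of all genes.

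The day 6 effect of imiquimod was set against the wound response of control skin, with the serine synthesis enzymes Psat1 and Phgdh in view. The comparison was chosen after the values were seen. Taken against the 6 h wound response of control skin, the day 6 effect was higher for Phgdh (log2 1.92 ± 0.43, adjusted p = 0.00995), Psat1 (1.32 ± 0.23, adjusted p = 0.00209) and Xbp1 (1.32 ± 0.32, adjusted p = 0.0128), beside 19.1% of all genes. Against the 12 h wound response it was higher for Psat1 (1.29 ± 0.23, adjusted p = 0.00411), Phgdh (1.71 ± 0.43, adjusted p = 0.026) and Ppp1r15a (2.47 ± 0.61, adjusted p = 0.0267), beside 11.2% of all genes. For Ppp1r15a this was a smaller fall and not a rise. It had 42.4 and 82.6 CPM under imiquimod at day 6 and 185 and 138 CPM in control, and its log2 change at 12 h was -3.60. In each of these comparisons 3 of the 35 members passed, below the share over all genes. Asns had differences of -0.03 and 0.37, neither past the threshold, and its level was higher in both settings. In CPM, Phgdh had 171 and 169 under imiquimod at day 6 and no more than 56.6 in any library of wounded or day 30 skin, while day 6 control stood at 85.8 and 85.1. Xbp1 was lost against 6 h without library 2 of day 6 control (adjusted p = 0.058) or library 1 of the 6 h wounds (0.0521), and without library 1 of day 30 control the difference of Phgdh was 1.21 at 6 h and 1.01 at 12 h. Against 12 h, Phgdh and Ppp1r15a were each kept in 2 of 8 fits that left out 1 library and lost in the others (0.0589 to 0.103), while Psat1 was kept in all 8. Phgdh was also lost with the compared libraries alone (adjusted p = 0.0532 against 6 h and 0.0726 against 12 h).

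Over the 5 comparisons with many calls (day 6, and 6 h and 12 h wounds in each kind of skin), 6 members passed in all 5: Ern1, Asns, Shmt2, Mthfd2, Dnajb11 and Hyou1. Another 6 passed in 4: Trib3, Creld2, Manf, Pdia4 and Syvn1, higher in each, and Ppp1r15a, lower in each. The members that passed in all 5 were higher in each. These comparisons each called between 30.8% and 38.7% of all genes, and how many genes passed in several of them was not counted. Ddit3, Sesn2, Hspa5, Dnajb9, Edem1 and Herpud1 passed in none of the 5. Herpud1, a degradation protein of the ER membrane, ranged from 113 to 263 CPM over the 16 libraries, Edem1, which hands misfolded glycoproteins to degradation, from 77.0 to 139 CPM, and Dnajb9 from 17.2 to 74.1 CPM. Control libraries are shared among the wound comparisons, so these counts are not independent of each other.

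The rest of the pathway was read from 110 further genes, all found and 108 of them tested. At day 6, 71 rose and 7 fell, beside 21.6% of all genes higher and 15% lower, with a median log2 change of 0.76. The 20 aminoacyl-tRNA synthetases, which charge tRNAs with amino acids and include known ATF4 targets, all rose (median 0.97), and of 34 genes of ER folding and secretion 30 rose and 1 fell. In 6 h control wounds, where 18% of all genes were higher, 18 of the synthetases rose (median 1.15) against 12 of the folding and secretion genes; at 12 h, where 16.5% of all genes were higher, 18 and 28 rose. At day 30, 0 of the 108 passed between imiquimod and control by edgeR's test.

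Slc7a11, the cystine importer, rose most among these genes in all 3 comparisons for which genes were named (day 6, and 6 h and 12 h control wounds), with 70.4 and 105 CPM under imiquimod at day 6 and 0.707 and 0.138 CPM in control (log2 7.77 ± 0.61, adjusted p = 1.19e-05). In 6 h control wounds it stood at 18.2 and 16.7 CPM, against 0.752 and 0.663 CPM at day 30 (4.49 ± 0.56, adjusted p = 0.000189). Stc2, a secreted glycoprotein induced by ATF4, had 43.7 and 47.8 CPM under imiquimod at day 6 and 2.00 and 0.654 CPM in control (5.27 ± 0.93, adjusted p = 0.00163), and Aldh1l2, a mitochondrial folate enzyme, 10.7 and 17.8 CPM under imiquimod and 2.79 and 2.58 CPM in control. Mthfd1l, another mitochondrial folate enzyme, had 49.1 and 65.5 CPM in 6 h control wounds and 3.55 and 3.81 CPM at day 30 (3.83 ± 0.35, adjusted p = 2.22e-05). The cystine importer and the mitochondrial folate enzymes were thus high in both settings.

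Atf3, a stress factor downstream of ATF4, fell in all 3: to 310.4 and 899.6 CPM under imiquimod at day 6, against 3464 and 2673 CPM in control (log2 -2.09 ± 0.50, adjusted p = 0.00633), and to 1142 and 1379 CPM in 6 h control wounds (-2.58 ± 0.51, adjusted p = 0.00239) and 335 and 431 CPM at 12 h (-4.35 ± 0.55, adjusted p = 0.000203), against 7770 and 5879 CPM at day 30. Like Ppp1r15a, it was highest in unwounded day 30 skin. Cbs, which makes cystathionine from homocysteine and serine, fell to 9.16 and 13.4 CPM under imiquimod at day 6, against 131 and 139.8 CPM in control (-3.37 ± 0.21, adjusted p = 8.5e-07), and fell in 6 h wounds (-1.37 ± 0.19, adjusted p = 0.000195). Slc1a4, a carrier of neutral amino acids, fell at day 6 (-1.53 ± 0.25, adjusted p = 0.000512) and at 12 h (-1.38 ± 0.25, adjusted p = 0.00138), and Creb3l1, an ER membrane factor related to ATF6, at 6 h (-2.16 ± 0.62, adjusted p = 0.0184) and 12 h (-1.93 ± 0.61, adjusted p = 0.0319), with day 30 control libraries far apart at 2.84 and 14.6 CPM.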

How the data were processed

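Per the labels' protocols, RNA came from a Trizol and Zymo extraction and went into Illumina TruSeq libraries. Alignment used STAR and mm10, per the submitters' processing notes; neither versions nor the annotation were stated. The deposited files hold raw counts per gene, 1 column a library, made by the authors without normalization. Which of STAR's strand columns was deposited is not given, so antisense overlaps could not be separated. Of 47729 identifiers, 47224 matched a GRCm38 symbol.

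Counts were tested in R 4.3.3 by edgeR 4.0.16: TMM scaling, removal of low genes by group size (17299 of 30802 genes with a count kept), and a robust quasi-likelihood F test in a single model of 8 group means over the 16 libraries. Two-sided p-values received the Benjamini-Hochberg adjustment across every gene in the test (threshold 0.05). SE is the log2 change divided by the root of F. The smallest exact permutation p for 2 libraries against 2 is 0.333, hence a model shared by all genes. The scripts were tested on simulated data. Log2 changes use TMM scaling and can differ from ratios of CPM; the median of all genes was 0.10 at day 6, and DESeq2's size factors moved no comparison's median by 0.03 or more.

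Alternatives were RLE size factors, no filter, DESeq2 1.42.0, the compared libraries alone, each library left out, and the replicate number within a time point as a block. That block was used because, after group means were removed, libraries sharing a number at a time point correlated by 0.18 to 0.716 (4 pairs), against -0.197 to 0.177 (24 pairs) between time points. Leaving out both day 30 libraries numbered 1, and the comparisons of the day 6 effect with wound responses, were added after the data were seen. The members and lists were chosen with earlier results of these data known. All 35 members are reported; of the other pathway genes, up to 3 per direction with the largest log2 change past the threshold and a mean of at least 2 log2 CPM were named. The 12 ATAC-seq samples were not used.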

Additional observations from a re-analysis of the deposited data

Results flagged for a closer look

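The imiquimod effect differed between day 6 and day 30, by the test of the difference itself (edgeR's quasi-likelihood test, adjusted over all genes), in 11 of the 35 members, each with a higher effect at day 6. In log2 units the differences were 3.04 for Trib3, 2.15 for Mthfd2, 1.65 for Asns, 1.62 for Shmt2 and 1.33 for Psat1 among the ATF4 targets, and 1.51 for Xbp1. Among the chaperones they were 0.95 for Dnajb11, 1.37 for Creld2, 1.18 for Manf, 1.08 for Pdia4 and 1.22 for Hyou1. At day 6 the level of each of these genes was higher in 2 of 2 imiquimod libraries than in both controls. The same libraries gave the test that picked the genes, so this separation adds no support. Groups of 2 libraries are too small to look for single libraries that stand apart.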

How the results depend on the processing

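The results rest on 2 libraries a group, with 2 day 30 libraries that went against their label. Every member was tested; Derl3 held as few as 0 to 102 reads in the libraries of the day 30 and 12 h groups. No called change turned direction under any alternative run. Of 106 calls, DESeq2 and the replicate block kept all 106, RLE size factors 103 (Pdia3 and Pdia6 at day 6 and Manf in the day 6 minus day 30 difference were lost, adjusted p = 0.0562, 0.0577 and 0.0567), no filter 104 and a fit of the compared libraries alone 79.

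Leaving out 1 library gave 7 to 16 calls of 18 at day 6, 6 to 13 of 11 in 6 h control wounds, 9 to 18 of 17 in 6 h post-imiquimod wounds, 6 to 17 of 11 in the day 6 minus day 30 difference, and 2 to 4 and 1 to 3 of 3 in the day 6 effect against the 6 h and the 12 h wound response. Without a filter on low counts, 18 were called in 6 h control wounds (20.3% of all genes) and 1 (Creld2) between post-imiquimod and control at 6 h (1.43%). Between 12 h and 6 h, 12 and 7 were called in control and post-imiquimod skin (3.18% and 2.03% of all genes). The day 6 effect against the 6 h and 12 h responses gave 8 and 9. With the compared libraries alone, the day 6 minus day 30 difference gave 4, 12 h against 6 h gave 2 in control and 3 in post-imiquimod skin, and the day 6 effect against 6 h gave 1. DESeq2 called 5 between 12 h and 6 h in control skin and 6 in the day 6 effect against 12 h.

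The replicate block called 18 in the day 6 minus day 30 difference, 11 and 2 between 12 h and 6 h in control and post-imiquimod skin, and 5 and 9 in the day 6 effect against the 6 h and 12 h responses; it ended no call. Between time points, as in wounds against day 30, the block takes spread out of the error by construction. Calls that it kept there are no independent check. Without both day 30 libraries numbered 1 the day 6 effect against 6 h gave 5. The cause of these shifts was not tested.

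Counts over all genes moved more where few genes passed. At day 30 the 2 genes became 19 with DESeq2, 151 without a filter, 5 with the block and 0 with the compared libraries alone. In that order, post-imiquimod against control gave 125, 441, 28 and 0 at 6 h (main count 6) and 27, 182, 20 and 8 at 12 h (main count 0). For 12 h against 6 h these counts were 693, 980, 1296 and 316 in control skin (main count 112) and 344, 624, 635 and 120 in post-imiquimod skin (main count 30). The difference in wound response gave 23, 255 and 3 at 6 h with DESeq2, no filter and the block, and 1 and 69 at 12 h with DESeq2 and no filter, where the main count was 0. With the compared libraries alone, 6 h control wounds had 3475 genes in place of 6003, and the day 6 effect minus the day 30, 6 h and 12 h effects 1802, 1469 and 1046 in place of 3894, 3302 and 1936; the block gave 5927, 5541 and 4233.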
